A study of Homo sapiens with 4 samples.

Results

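Genes of cholesterol synthesis were followed through the response to estrogen in single cells. The 8 genes were HMGCS1, IDI1, FDPS, FDFT1, SQLE, LSS and SC5D, which encode enzymes, and INSIG1, which encodes a sterol sensor of the endoplasmic reticulum. Each symbol had exactly 1 row among the 33540 features of the Ishikawa matrix and the 33538 of the T-47D matrix, and all 8 reached the minimum of 10 CPM in both lines. UMIs (unique molecular identifiers) count captured transcripts, a pool is the summed UMIs of all cells of 1 line and time point, and CPM are a gene's UMIs per 1000000 of the pool.

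Single-cell RNA sequencing was carried out on Ishikawa, an established endometrial adenocarcinoma line, and T-47D, an established line from a ductal carcinoma of the breast. In both lines, parallel cultures received 10 nM 17β-estradiol (E2, the main estrogen) for 2, 4 or 8 h, or DMSO, the solvent, as the 0 h culture, and all cultures had been kept in hormone-depleted medium beforehand. Cells of the 4 cultures of a line were tagged by MULTI-seq, a method that anchors a DNA barcode in the membrane, and were mixed into 1 droplet library per line. Each line and time point was therefore 1 culture with its own tag, so time point, culture and tag cannot be told apart, no value has a replicate, and no test was possible.

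Cells make cholesterol from acetyl-CoA through the mevalonate pathway, which also supplies isoprenoids for protein prenylation, dolichol and ubiquinone. When membrane sterol is low, the transcription factor SREBP2 (gene SREBF2) is carried to the Golgi by SCAP, cut, and sent to the nucleus, where it activates the genes of the pathway. INSIG proteins hold SCAP back when sterol is plentiful, and because INSIG1 is itself an SREBP target, the genes of synthesis and their brake are usually expressed together. HMGCS1 makes HMG-CoA, IDI1 isomerises the C5 isoprenoid units, and FDPS joins them into farnesyl diphosphate. FDFT1 makes squalene, SQLE oxidises it, LSS closes the ring to lanosterol, and SC5D introduces a late double bond of the sterol ring.

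Genes that share a regulator may share letters in their promoters, and RefSeq promoter sequences (GRCh38.p14, 250 bases before to 50 after each start) were read for this. Windows were given for 6 of the 8 genes, 10 windows in all, since some genes have more than 1 start. The CCAAT box, the letters bound by NF-Y, which assists SREBP at many of its targets, was found on either strand in 8 of the 10 windows and for all 6 genes. It was found in 34.6% of 35116 windows of all genes and in 10 of the 16 windows of the other genes of the pathway. Windows of the same gene can overlap, as those of SC5D do, so the same letters can count in each. By gene, the box was found for 10846 of all 27305 symbols. One match per gene is shown, the one nearest to the start in the first window that holds one, because it is the letter pattern that all 6 share. Capitals mark ATTGG, which is CCAAT on the opposite strand, and each line reads 5′ to 3′ on the strand of the gene.
HMGCS1: ctaccggccgcgATTGGctgtgggagcca
IDI1: ctggcgcgagcgATTGGctgcgcggcccg
FDPS: tcccgcgggcacATTGGgagttgtagtct
LSS: cgcggcgctctgATTGGttgcgtgggcgt
SC5D: cgccggtcgctgATTGGctggccgctcca
INSIG1: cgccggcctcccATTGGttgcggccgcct

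These stretches lie at chr5:43313496-43313524 (minus strand), chr10:1048957-1048985 (minus), chr1:155308803-155308831 (plus), chr21:46228908-46228936 (minus), chr11:121292703-121292731 (plus) and chr7:155297696-155297724 (plus), in the order given, all upstream of the start. The first capital lies 100 bases before the start in HMGCS1, 87 in IDI1, 51 in FDPS, 150 in LSS, 56 in SC5D and 170 in INSIG1. The E-box CACGTG, which SREBPs can also bind, was in 4 of the 10 windows, those of INSIG1, LSS and SC5D, against 7.26% of all windows. By gene, it was found for 3 of the 6 genes and for 2396 of all 27305 symbols. A sterol regulatory element written as TCACNCCAC was in none of the 10 windows and in 1.13% of all windows, and among the regulators it was in that of SREBF2. The palindromic estrogen response element was in none of the 10 and in 0.057% of all windows. No CCAAT match of the 6 genes overlapped another of these motifs. Matches describe letters in these windows only.

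The starting levels differed strongly between the lines for part of the pathway. In the 0 h pools SQLE stood at 251 CPM in T-47D and 25.9 CPM in Ishikawa, a ratio of 9.68 (95% interval 8.75 to 10.7). This ratio was 9.58 at 2 h, 12.9 at 4 h and 15.1 at 8 h. SC5D was 3.72 times as high in T-47D at 0 h (162 against 43.4 CPM) and LSS 2.60 times as high (24.8 against 9.54 CPM). SQLE, SC5D and LSS were the 3 genes of 8 that were at least 2-fold higher in T-47D at 0 h, where 14.6% of 8023 genes tested were at least 2-fold higher and 19.7% at least 2-fold lower in T-47D. None of the 8 was at least 2-fold lower. HMGCS1 was the gene nearest to that limit, with 44.4 CPM in T-47D against 87.2 in Ishikawa, a ratio of 0.510 (0.473 to 0.549). FDFT1 was at 143 and 145 CPM, a ratio of 0.984 whose interval (0.935 to 1.04) held 1. The median log2 ratio of T-47D over Ishikawa was 0.65 over the 8 genes and -0.15 over all genes tested. Line and library cannot be told apart in this comparison. Intervals throughout are exact 95% intervals of the UMI counts and cover counting error only, not variation between cultures.

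Levels count tags at the 3′ end of transcripts and were not scaled to length, so they are compared between pools and not between genes. FDPS has processed pseudogenes of closely similar sequence, so its counts carry the uncertainty of how such reads were assigned.

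**Figure D1:**
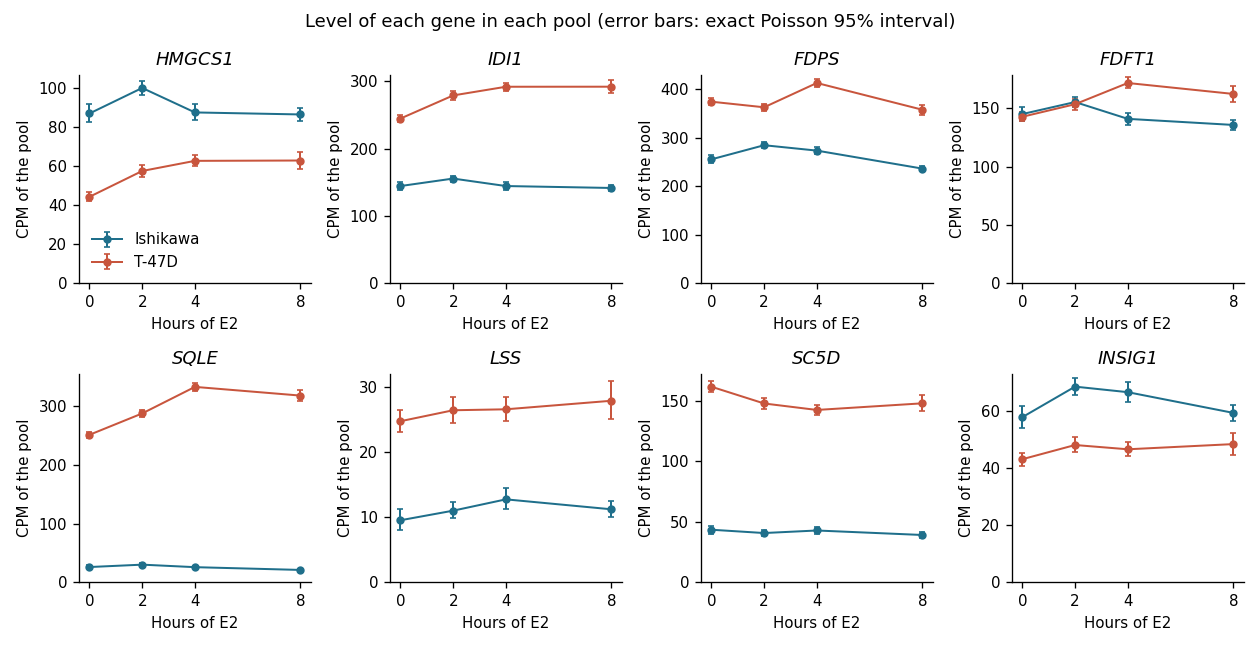
CPM of the 8 genes against hours of E2, with 1 pool per point, Ishikawa in blue and T-47D in red, and exact Poisson 95% intervals as error bars. SQLE lies between 21.0 and 30.0 CPM in Ishikawa and between 251 and 333 CPM in T-47D, and HMGCS1 climbs from 44.4 to 63.0 CPM in T-47D while it stays between 86.7 and 100.2 CPM in Ishikawa.

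In T-47D HMGCS1 and SQLE rose after E2, and the sum of all 8 genes was higher at every later time than at 0 h. A log2 change is the difference of log2(CPM + 1) between a pool and the 0 h pool of its line, and a gene was called past the fold rule when this was at least 0.32 in size and its mean over the 4 pools was at least 10 CPM. HMGCS1, which makes HMG-CoA, was at 44.4, 57.7, 62.9 and 63.0 CPM at 0, 2, 4 and 8 h. Its log2 changes were 0.37 at 2 h, 0.49 at 4 h and 0.50 at 8 h (interval of the plain ratio at 8 h 0.38 to 0.63), so most of the difference was already present at 2 h. SQLE, the squalene epoxidase and a slow step of the pathway, was at 251, 288, 333 and 318 CPM. It passed the rule at 4 h (0.40, interval 0.36 to 0.45) and 8 h (0.34, 0.29 to 0.39), and not at 2 h (0.19). From 4 to 8 h its log2 ratio was -0.066 (-0.12 to -0.013). HMGCS1 at 4 and 8 h and SQLE at 4 h stayed past the rule under each alternative that kept its fold. HMGCS1 at 2 h was at 0.30 with cells thinned to equal depth, and SQLE at 8 h was just under the limit, at 0.32, with a lower UMI limit and with each cell weighed equally.

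The share of genes past the rule gives the background for these calls. In T-47D 3.41%, 4.49% and 7.11% of 7440 usable genes were past the rule upward at 2, 4 and 8 h, and 1.68%, 2.76% and 4.44% downward. Of the 8 genes, 1 was higher at 2 h, 2 at 4 h and 2 at 8 h, and none was lower at any time. The median change of the 8 was 0.13, 0.20 and 0.18 at the 3 times, beside medians of 0.0052, -0.0075 and 0.0063 over all usable genes. The comparisons at 2, 4 and 8 h share the 0 h pool, so their calls are not independent of each other.

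The other 6 genes stayed within the limit in T-47D, and they did not all lie on the same side of 0 h. IDI1 was at 245, 279, 292 and 292 CPM, with log2 changes of 0.19, 0.25 and 0.25. FDFT1, which commits farnesyl diphosphate to sterols, was at 143, 153, 172 and 162 CPM, with 0.10, 0.26 and 0.18. INSIG1 was at 43.2, 48.2, 46.7 and 48.5 CPM, with 0.15, 0.11 and 0.16, and all of its intervals lay above 0. LSS was at 24.8, 26.5, 26.6 and 27.9 CPM, and its 3 intervals held 0. FDPS alternated, at 374, 362, 412 and 357 CPM, with an interval below 0 at 2 h and 8 h and above 0 at 4 h. SC5D, which acts near the end of the pathway, lay below its 0 h level at every later time, at 162, 148, 142.5 and 148 CPM and log2 changes of -0.13, -0.18 and -0.13. Summed over the 8 genes, T-47D pools held 1287, 1363, 1487 and 1417 CPM, with log2 ratios of 0.08 at 2 h, 0.21 at 4 h and 0.14 at 8 h (0.11 to 0.16).

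In Ishikawa no gene was past the rule at more than 1 time. The sum of the 8, FDPS, FDFT1 and SQLE lay above 0 h at 2 h and below it at 8 h. HMGCS1 and IDI1 lay above at 2 h and close to 0 h at 8 h (-0.0082 and -0.029). With TMM factors HMGCS1 at 8 h was at 0.018. With all kept cells, LSS and INSIG1 lay above at both times and SC5D lay below at both. These sides were not kept in every cell set given below. The 8 h intervals of HMGCS1, IDI1, LSS and INSIG1 held 0. The shares past the rule among 7887 usable genes were 2.41%, 2.57% and 3.91% higher and 4.11%, 4.63% and 4.21% lower at 2, 4 and 8 h. With TMM scaling, which shifts the split between directions in this line, they were 2.84%, 3.37% and 4.69% higher and 2.93%, 3.54% and 3.41% lower. Of the 8 genes, 1 passed the rule, LSS at 4 h, and none passed it downward. LSS had the fewest UMIs of the 8, with 146, 329, 247 and 348 UMIs or 9.54, 11.0, 12.8 and 11.2 CPM, and its log2 change at 4 h was 0.38 with an interval of 0.12 to 0.72. That call was lost, among other settings, with a pseudocount of 5 (0.29), with cells thinned to equal depth (0.22) and with every called cell (0.08).

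At 2 h, 7 of the 8 genes lay above 0 h in Ishikawa and the intervals of 6 excluded 0, with a median change of 0.17 beside -0.014 over all usable genes. The changes were 0.24 for INSIG1 (58.0 to 68.7 CPM), 0.20 for SQLE (25.9 to 30.0 CPM), 0.20 for HMGCS1 (87.2 to 100.2 CPM) and 0.15 for FDPS (255 to 284 CPM). IDI1 (145 to 156 CPM) and FDFT1 (145 to 155 CPM) were at 0.11 and 0.10. SC5D was the exception, at 43.4 and 40.7 CPM. The sum of the 8 was 769, 846, 795 and 731 CPM at 0, 2, 4 and 8 h, log2 ratios of 0.14 (0.11 to 0.17), 0.05 and -0.07 (-0.10 to -0.04). By 8 h, 2 of the 8 lay above 0 h and 4 intervals lay below 0, those of SQLE (21.0 CPM, -0.29), SC5D (39.1 CPM, -0.15), FDPS (236 CPM, -0.11) and FDFT1 (136 CPM, -0.10). From 2 to 8 h the log2 ratio was -0.51 for SQLE (-0.66 to -0.37), the widest step of any of the 8 genes between these times in either line. The Ishikawa 0 h pool stood apart before cells were filtered, with 38.2% of its called cells kept against 52.4% to 55.8% later and a median mitochondrial share of 7.29% against 4.63% to 4.95%. Every change in this line rests on that pool, and its part in the result was not tested. With every called cell used, HMGCS1 at 2 h was at 0.05, SQLE at -0.01 and LSS at -0.13. IDI1 was then at 0.085 and FDPS at 0.11, while FDFT1 was at 0.15 and INSIG1 at 0.31.

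**Figure D2:**
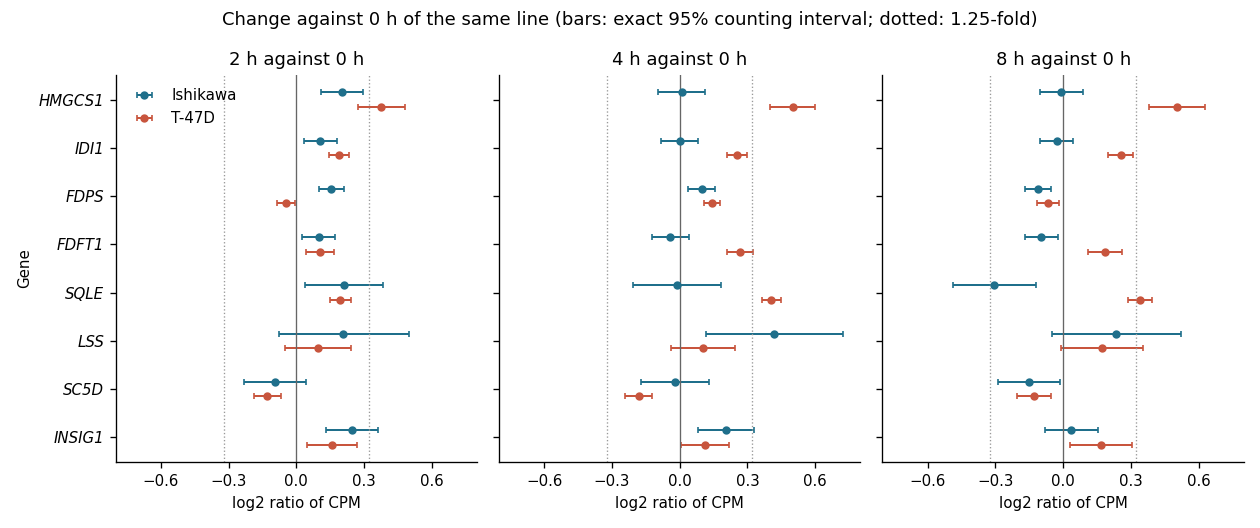
Log2 ratio of CPM at 2, 4 and 8 h over 0 h of the same line for each gene, with exact 95% counting intervals as bars and dotted lines at the fold rule (0.32 in size). The T-47D points of HMGCS1 lie right of the dotted line in all 3 panels and those of SQLE at 4 and 8 h, while the Ishikawa points of SQLE move from 0.21 at 2 h to -0.30 at 8 h on this plain ratio.

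The treatment itself was visible in both lines. In T-47D, GREB1 and PGR, established targets of the estrogen receptor, rose, with log2 changes at 8 h of 2.08 and 1.45. In Ishikawa TGFA, another known target, rose from 11.2 to 42.7 CPM (1.84 at 8 h). The epithelial genes EPCAM, KRT8, KRT18 and CDH1 were at 61.4 CPM or more in every pool. Among markers of the lines, the breast luminal genes GATA3 (444 to 518 CPM) and PIP (720 to 886 CPM) had 0 to 1 UMI in the Ishikawa pools, FOXA1 was at 84.4 to 119 CPM in T-47D with 86 to 159 UMIs in the Ishikawa pools, TRPS1 was at 460.3 to 583 CPM in T-47D and 14.5 to 21.2 CPM in Ishikawa, and the endometrial genes PAX8, SOX17, HOXA10 and EMX2 were at 52.2 to 133 CPM in Ishikawa and at 0 UMIs in all 4 T-47D pools. Of 4 markers of other cell types, PTPRC and PECAM1 had 0 to 3 UMIs in any pool and VIM 15 to 186. COL1A1 had 90 to 185 UMIs in the T-47D pools and was at 28.9, 23.3, 21.4 and 19.8 CPM in Ishikawa, so it was highest in the 0 h pool, and its part in the changes was not tested. The 2 matrices share 80 barcode sequences, 5 of them among kept cells of both lines.

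Of the 16 other genes on the pathway lists, 1 passed the rule in T-47D and 2 in Ishikawa. At single times 3.41% to 7.11% of usable T-47D genes were higher past the rule and 1.68% to 4.44% lower. In Ishikawa 2.41% to 3.91% were higher and 4.11% to 4.63% lower. The counts of the 16 take all times and both directions together, so they were not set apart from these shares. Among the 6 other genes from ACAT2 to GGPS1, none passed the rule at any time in either line. At 8 h the extremes of this list, members included, were HMGCS1 (0.50) and GGPS1 (-0.08) in T-47D and PMVK (0.08) and MVD (-0.18) in Ishikawa. Among the 10 other genes from squalene to cholesterol, CYP51A1, the lanosterol demethylase, rose in T-47D, at 17.8, 21.6, 22.8 and 23.1 CPM with log2 changes of 0.26, 0.33 and 0.36, past the rule at 4 and 8 h. In Ishikawa NSDHL, which removes a methyl group of the sterol ring, passed the rule upward at 2 h (0.33) and TM7SF2, a sterol reductase, downward at 8 h (-0.38), and CYP51A1 was highest at 8 h (0.23). The median change of the 10 at 2, 4 and 8 h was -0.010, 0.11 and 0.023 in T-47D and 0.066, 0.042 and -0.025 in Ishikawa, and that of the 6 earlier genes -0.023, 0.045 and 0.0036 in T-47D and 0.10, 0.046 and -0.086 in Ishikawa.

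Among the regulators of the pathway, 1 passed the rule, SREBF1 in T-47D at 8 h, where 4.44% of usable genes were lower past it. SREBF2 was at 20.3 to 22.1 CPM in T-47D and 23.4 to 26.7 CPM in Ishikawa, with no change past the rule. SREBF1, whose product favours fatty acid genes, fell past the rule in T-47D at 8 h (28.2, 22.9, 23.7 and 22.4 CPM, log2 -0.32), and was lowest of its list in Ishikawa as well (-0.19 at 8 h, within the limit). INSIG2, the second INSIG gene, was at -0.30, -0.315 and -0.19 in T-47D, within the limit and on the other side of 0 from INSIG1. In Ishikawa it was highest of the list at 8 h (0.06). SCAP was at 11.6 to 12.8 CPM in Ishikawa and was under the minimum in T-47D, with 293, 213, 277 and 125 UMIs. Of 14 genes of cholesterol uptake and handling, 7 were usable in Ishikawa and 8 in T-47D. TMEM97, a sterol-responsive membrane protein that binds NPC1, rose in T-47D at 8 h (59.9 to 76.3 CPM, 0.34), where NR1H2 was lowest (-0.16). The range in Ishikawa at 8 h ran from NPC2 (-0.24) to MYLIP (0.14), with none past the rule. STARD4, a sterol transporter, was at 11.99 to 13.5 CPM in T-47D and 18.5 to 19.7 CPM in Ishikawa.

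Of 11 genes of fatty acid synthesis, FADS1 passed the rule in T-47D at 8 h (0.34) and FASN in Ishikawa at 8 h (0.35), both upward. At 8 h 7.11% of usable genes were higher past the rule in T-47D and 3.91% in Ishikawa. The lowest of the list at 8 h were ELOVL5 in T-47D (-0.21) and ACSS2 in Ishikawa (-0.20). Glycolysis served as a list outside lipid metabolism. Among its usable genes, HK1 rose in T-47D at 8 h (0.42) and LDHA (0.40) and PFKP (0.39) in Ishikawa, and the lowest were GAPDH in T-47D (-0.21) and ENO2 in Ishikawa (-0.18). The median of the glycolysis list was -0.04 in T-47D and 0.11 in Ishikawa at 8 h.

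The share of cells with a UMI differed between the lines as the pool levels did. To compare cells at equal depth, each cell was thinned at random to 12539 UMIs, which left out 461 Ishikawa and 184 T-47D cells with fewer. At 0 h a UMI of FDPS was found in 88.6% of 676 thinned Ishikawa cells and 95.4% of 1456 T-47D cells, IDI1 in 73.4% and 91.5%, and FDFT1 in 75.9% and 77.4%. SQLE was found in 26.2% of Ishikawa and 89.2% of T-47D cells, SC5D in 39.2% and 82.1%, and LSS in 11.7% and 25.0%. The share was higher in Ishikawa for HMGCS1 (55.0% against 40.5%) and INSIG1 (44.5% against 38.5%), with overlapping intervals for INSIG1. Without thinning the 0 h shares were higher for all 8, for example 63.9% and 54.1% for HMGCS1. Neither library holds a cell type that should lack these genes, so the share that free RNA gives could not be measured.

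The change of HMGCS1 in T-47D was seen in the share of cells as well. It was found in 40.5%, 46.0%, 48.5% and 49.9% of thinned cells at 0, 2, 4 and 8 h (intervals 38.0% to 43.1% at 0 h and 45.6% to 54.2% at 8 h), while its mean went from 0.580 to 0.773 UMIs per cell. Without thinning the shares were 54.1%, 60.9%, 63.1% and 66.9%. SQLE was already found in most T-47D cells, at 89.2%, 90.1%, 93.7% and 93.5%, and its mean went from 3.05 to 3.82 UMIs. In Ishikawa SQLE was found in 26.2%, 27.8%, 26.0% and 21.0% of cells, and without thinning in 35.3%, 37.5%, 36.1% and 31.5%. A thinned cell held a median of 8 to 9 UMIs of all 8 genes together in Ishikawa and 15 to 17 in T-47D, and a median of 4 of the 8 genes in Ishikawa and 5 to 6 in T-47D. All 8 were caught in 0.359% to 0.766% of Ishikawa cells and 3.23% to 5.73% of T-47D cells.

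**Figure D3:**
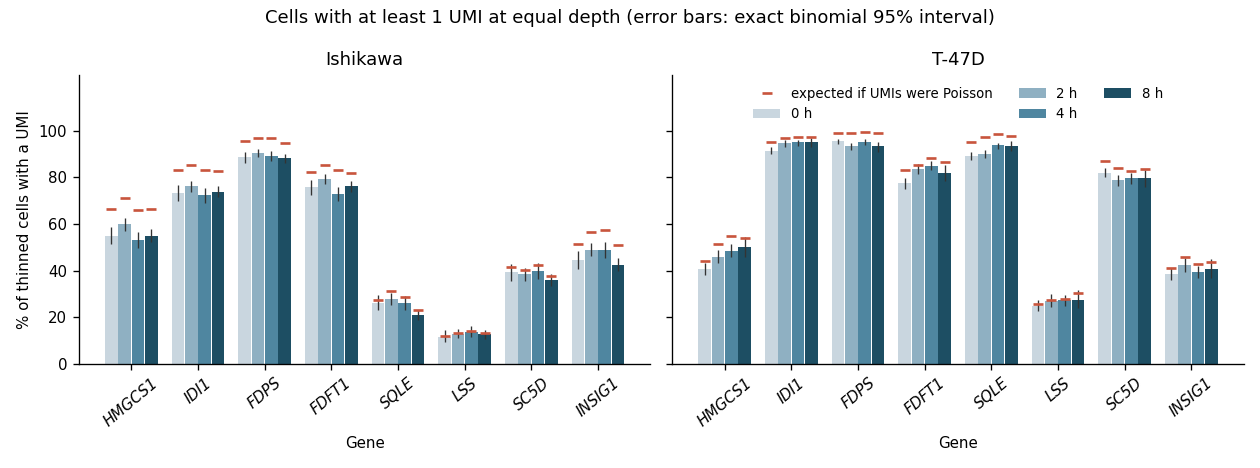
Percentage of cells thinned to 12539 UMIs that hold at least 1 UMI of each gene, for 0, 2, 4 and 8 h (light to dark bars), with exact binomial 95% intervals and a red mark at the share that a Poisson spread around the same mean would give. The bars of HMGCS1 in Ishikawa at 0 h (55.0%) lie well under their mark (66.6%), and those of LSS in Ishikawa at 0 h (11.7%) meet theirs (12.1%).

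The same mean was spread unevenly over cells for some of the genes. At 0 h HMGCS1 was found in 55.0% of Ishikawa cells where a Poisson spread would give 66.6%, and its variance was 2.31 times its mean. FDPS had a variance 3.15 times its mean in T-47D, with up to 54 UMIs in a thinned cell against a mean of 4.66. INSIG1 had a variance 2.01 times its mean in Ishikawa and 1.19 times in T-47D. LSS was close to Poisson in both lines, at 1.08. To set this beside other genes of like level, the coefficient of variation (CV, the SD divided by the mean) of every usable gene at 0 h was compared with a smooth curve of CV against mean, and the residual is called noise. INSIG1 and HMGCS1 lay at the 97.4th and 97.0th percentiles of noise among 7887 Ishikawa genes, and FDPS (96.5), SQLE (95.01) and HMGCS1 (94.7) were highest among the 8 in T-47D, out of 7440 genes. By a split of genes of like mean into High (top 20%), Medium and Low noise, HMGCS1, IDI1, FDPS, SQLE and INSIG1 were High in both lines and FDFT1, LSS and SC5D Medium in both. These classes came from 1 culture per line and were given no test.

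Cells that held more of one gene tended, weakly, to hold more of others, least so for LSS and SC5D. Spearman's rho was computed across thinned cells within each time point for all 28 pairs, as a description. The points are cells of 1 library and 1 culture, at equal depth. The median rho of the 28 pairs in Ishikawa was 0.125, 0.119, 0.0974 and 0.109 at 0, 2, 4 and 8 h. The T-47D medians were 0.0910, 0.0984, 0.115 and 0.103. At each time 14 to 16 of the 28 pairs were above 0.1 in Ishikawa and 13 to 15 in T-47D. The mean of the 4 medians was 0.113 in Ishikawa and 0.102 in T-47D. For the 16 other genes of both pathway lists it was 0.0682 and 0.0455, for glycolysis 0.0537 and 0.0436, for fatty acid synthesis 0.0403 and 0.0317, and for the regulators 0.00924 and 0.0175. These lists differ in level, and sparse counts pull rho toward 0, so the lists are not placed on the same footing.

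The highest pairs were not the same in each line. In Ishikawa the highest pairs were HMGCS1 with IDI1 (mean rho over the 4 time points 0.30, range 0.24 to 0.33), HMGCS1 with FDFT1 (0.25) and IDI1 with FDFT1 (0.24), all between enzymes that act before SQLE. In T-47D SQLE was part of the 3 highest pairs, with IDI1 (0.30, range 0.24 to 0.33), FDPS (0.29) and HMGCS1 (0.23). At 0 h SQLE had a mean of 0.32 UMIs per thinned cell in Ishikawa and 3.05 in T-47D, and HMGCS1 had 1.10 and 0.58. Sparse counts pull rho toward 0, so the order of pairs is not on the same footing between the lines. Against the sum of the other 7 genes, IDI1 (0.36), HMGCS1 (0.35) and FDFT1 (0.35) were highest in Ishikawa, and SQLE (0.41), FDPS (0.35) and IDI1 (0.33) in T-47D. INSIG1 stood at 0.24 and 0.18. LSS (0.10 and 0.13) and SC5D (0.08 and 0.12) were lowest in both lines. LSS is the gene with the fewest UMIs. SC5D had more UMIs than HMGCS1 in T-47D, where HMGCS1 stood at 0.24, and fewer in Ishikawa. The part of a gene's level in its rho was not tested.

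**Figure D4:**
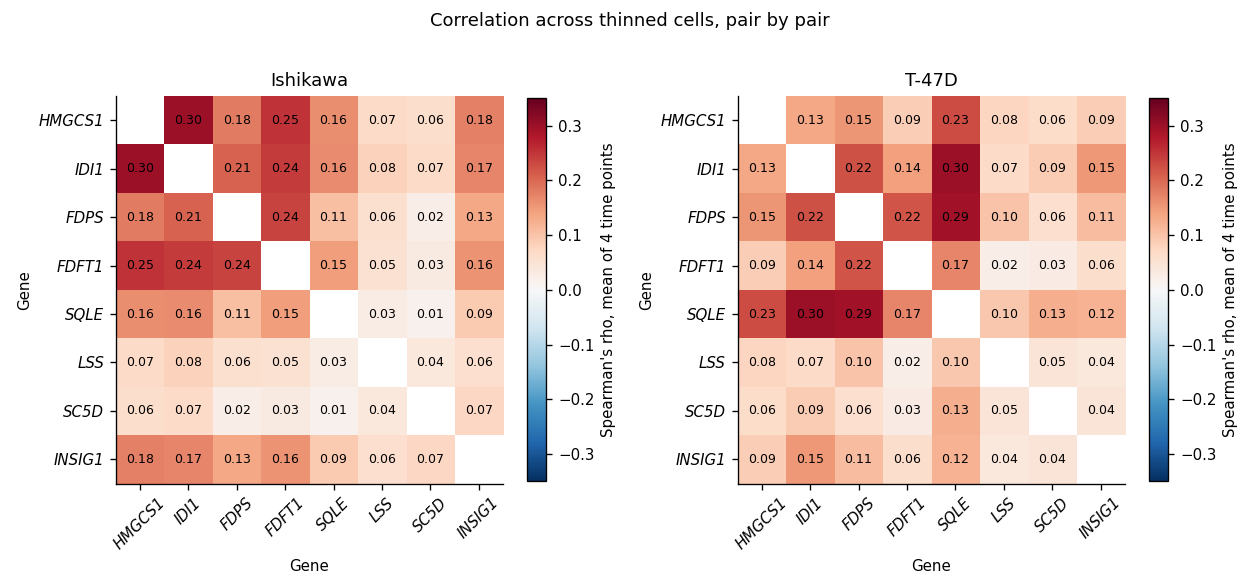
Spearman's rho across thinned cells for each pair of the 8 genes, as the mean of the 4 time points, with Ishikawa on the left and T-47D on the right. HMGCS1 and IDI1 (0.30) form the darkest cell in Ishikawa and IDI1 and SQLE (0.30) in T-47D, and the rows of LSS and SC5D are pale in both.

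The rest of the transcriptome was then ranked by rho with the summed 8 genes, and other genes of the same pathway were among the highest. In T-47D, among 5164 genes of at least 20 CPM, the 10 highest by mean rho over the 4 time points were EBP (0.35), MVD (0.32), SCD (0.29), MSMO1 (0.29), ACAT2 (0.25), DHCR7 (0.24), TMEM97 (0.23), ERG28 (0.22), SFN (0.22) and ACLY (0.21). EBP, MVD, MSMO1, ACAT2, DHCR7 and ERG28, 6 of the 10, belong to the 2 pathway lists, SCD and ACLY to fatty acid synthesis, and SFN encodes the epithelial 14-3-3 sigma protein. In Ishikawa, among 5502 genes, the 10 highest were ACAT2 (0.48), MSMO1 (0.34), TUBB (0.33), TUBA1B (0.33), EBP (0.32), ERG28 (0.30), TUBB4B (0.30), TMEM97 (0.29), DHCR7 (0.28) and ACTB (0.26). Of these, 5 belong to the 2 pathway lists and 4 encode tubulins or actin. The median rho over all genes compared was 0.0058 in T-47D and 0.025 in Ishikawa, and the 99th percentile 0.123 and 0.195. SREBF2, the regulator, had 0.05 and 0.07. ACAT2, MSMO1, EBP, ERG28, TMEM97 and DHCR7 were among the 10 in both lines.

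**Figure D5:**
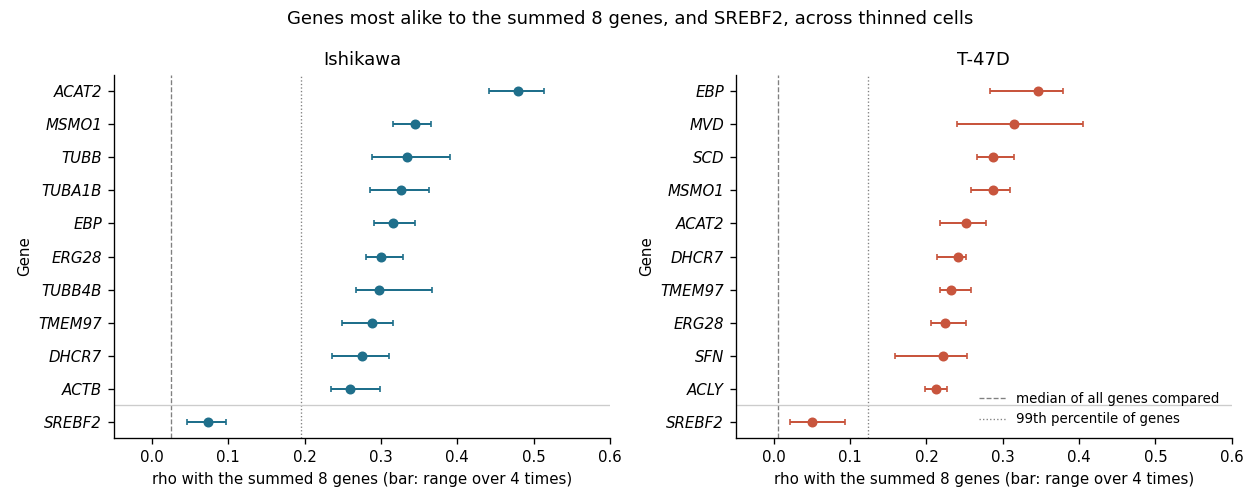
Mean Spearman's rho with the summed 8 genes for the 10 genes most alike in each line, and for SREBF2 under the grey line. Bars give the range over the 4 time points, the dashed line the median of all genes compared and the dotted line the 99th percentile. ACAT2 stands apart in Ishikawa at 0.48, and EBP leads in T-47D at 0.35.

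Fluorescent protein transcripts took part of the counts in Ishikawa. Its matrix alone lists GFP and tdTomato, which the labels do not describe, and GFP averaged 39753 CPM over the 4 pools. GFP was the gene with the lowest rho with the summed 8 (-0.34), and the share of a cell's UMIs from GFP had a rho of -0.37 to -0.31 with them. When cells under 1% GFP were used, 2593 of 4152, 7 of the 10 genes were the same, with ACAT2 at 0.46, MSMO1, EBP, ERG28 and TMEM97 next, and TUBB and TUBA1B at 0.22 and 0.20. When GFP and tdTomato were left out before cells were thinned, 9 of the 10 were the same and MVD replaced ACTB. The median of the 28 pairs was then 0.0916, and 0.116 in cells under 1% GFP. The summed change at 8 h was -0.14 in cells under 1% GFP. INSIG1 at 8 h was at -0.13 in these cells, in place of 0.036. At 2 h in these cells SQLE was at 0.17, INSIG1 at 0.13, HMGCS1 and LSS at 0.12 and FDPS at 0.076. IDI1 was at 0.070, FDFT1 at 0.047 and SC5D at -0.15, and each of these 2 h changes was lower than with all kept cells.

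Cells with transcripts of division genes held more of the 8 genes. A thinned cell with a UMI of TOP2A or MKI67, 2 genes of dividing cells, was set against a thinned cell with none. The sum of the 8 genes was higher in the former in all 8 pools, by 0.18 to 0.29 on the log2 scale in Ishikawa and by 0.09 to 0.21 in T-47D. FDPS made up most of the difference in Ishikawa, at 282 against 193 CPM at 0 h, with log2 ratios of 0.40 to 0.56 over the 4 time points. In T-47D INSIG1 had the highest log2 ratio at every time, 0.39 to 0.68, with 55.0 against 37.8 CPM at 0 h. SC5D intervals held 0 in all 8 pools. TOP2A itself fell in Ishikawa past the rule at 4 h (-0.34) and 8 h (-0.46), and was at -0.07, 0.00 and 0.12 in T-47D. In cells without a UMI of either gene the summed change at 8 h was -0.027 in Ishikawa and 0.14 in T-47D, HMGCS1 and SQLE stayed past the rule in T-47D, and FDPS at 8 h in Ishikawa was at 0.065 in place of -0.11. At 2 h in Ishikawa HMGCS1 was at 0.014 in these cells and SQLE at 0.054, both in place of 0.20, and FDFT1 at 0.032 in place of 0.10. INSIG1 was then at 0.20, IDI1 at 0.13, and FDPS and LSS at 0.27. SC5D in Ishikawa was at 0.094 at 2 h and 0.027 at 8 h in these cells, in place of -0.092 and -0.15. The median rho of the 28 pairs among these cells was 0.108 and 0.0979.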

How the data were processed

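Single-cell RNA sequencing of Ishikawa and T-47D cells was performed by the authors with the 10x 3′ v3.1 chemistry. Deposited counts are UMIs per gene and cell, made by the authors with Cell Ranger 3.1.0 against hg38, as the submitters' processing notes name them. A deposited table gives the time point of each cell, called from MULTI-seq tags with the demultiplex R package. The tag libraries themselves were not used here.

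Cells with a single time call were filtered by the limits of the study (Ishikawa 8500 to 35000 UMIs, 2700 to 6000 genes, under 7% mitochondrial; T-47D 7500 to 40000, 1500 to 6000, under 20%), 4613 of 9077 in Ishikawa and all 4626 in T-47D. Tag doublets (1906 and 1442 barcodes) and uncalled barcodes (4002 and 12120) were left out, no other doublet caller was run, and pairs with 1 tag remain. UMIs were summed into 8 pools of 12927799 to 33175309 UMIs and scaled to CPM, with a pseudocount of 1 for changes, so a change of a low gene is understated. Intervals are exact Poisson (CPM), exact binomial (shares) and exact conditional binomial (ratios) at 95%. With 1 culture per line and time no test was run. Cells were thinned without replacement for shares and co-expression. For noise, log2(CV + 1) was regressed on log10 of the mean with a generalised additive model (mgcv 1.9.3, R 4.3.3) at 0 h, and residuals were kept. TMM factors came from edgeR 4.0.16, and other steps used Python 3.11.15, numpy 2.4.6 and scipy 1.17.1. The steps were tested on simulated data.

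The members, pathway lists and markers were chosen with earlier results of these data known. Genes named were the 8 members; SREBF2, SREBF1, SCAP, INSIG2 and STARD4; the highest and lowest usable gene of each list at 8 h per line; the 10 genes most alike to the summed members, among those of at least 20 CPM; and GREB1, PGR and TGFA. Genes of a list past the rule, GFP, TOP2A and markers were named beside these. The comparison of the lines at 0 h and the settings without GFP were added after the data were seen. Some genes that this rule also takes in are not reported here.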

Additional observations from a re-analysis of the deposited data

Results flagged for a closer look

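For 3 genes, the Ishikawa and T-47D intervals lay on opposite sides of 0 at the same time. The log2 change of FDPS at 2 h was 0.15 in Ishikawa (plain-ratio interval 0.10 to 0.21) against -0.045 in T-47D (-0.084 to -0.0065). That of FDFT1 at 8 h was -0.10 in Ishikawa and 0.18 in T-47D. That of SQLE at 8 h was -0.29 in Ishikawa (plain-ratio interval -0.49 to -0.12) and 0.34 in T-47D (0.29 to 0.39), the widest of the 3 differences. The intervals cover counting error only. With 1 culture per line and time, none of the 3 differences was tested. Over all alternatives for which the change was computed, FDPS at 2 h ran from 0.076 (cells under 1% GFP) to 0.27 (cells without TOP2A and MKI67 UMIs) in Ishikawa and from -0.093 to -0.031 in T-47D. FDFT1 at 8 h ran from -0.18 (cells under 1% GFP) to -0.035 (thinned cells) in Ishikawa and from 0.14 to 0.19 in T-47D. SQLE at 8 h ran from -0.45 (every called cell) to -0.25 (pseudocount of 5) in Ishikawa and from 0.32 to 0.34 in T-47D.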

How the results depend on the processing

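A gene is counted here if past the rule at any time. In T-47D, HMGCS1 and SQLE, 2 genes, were higher under each alternative except a 1.5-fold rule, which left 0, and none was lower under any. All called T-47D cells were within the study's limits. In that line the setting with every called cell therefore repeated the main values and could not differ. In Ishikawa the 1 gene higher (LSS) became 0 with a pseudocount of 5, a minimum of 50 CPM, a 1.5-fold rule, every called cell, a lower UMI limit (30513 UMIs), cells under 1% GFP or thinned cells, and 2 (LSS and INSIG1) in cells without TOP2A and MKI67 UMIs. The 0 genes lower became 1 (SQLE) with every called cell, with cells under 1% GFP and without TOP2A and MKI67 UMIs, each time at 8 h, where 7.84%, 5.71% and 6.20% of all usable genes were lower under these settings, against 4.21%. Higher genes were 5.43% to 7.80% over the 3 times in cells without TOP2A and MKI67 UMIs, against 2.41% to 3.91%. The summed change at 8 h in Ishikawa, -0.07, was -0.14 in cells under 1% GFP and -0.027 in cells without TOP2A and MKI67 UMIs. The median co-expression, 0.113 in Ishikawa and 0.102 in T-47D, was 0.195 and 0.243 without thinning and 0.147 and 0.144 with UMIs scaled to each cell's total in place of thinning. The cause of these differences was not tested, except that without thinning the cells' depth enters rho.

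Of 432 single-gene changes under an alternative, 412 stayed within the counting interval, 20 moved outside it and 0 of the called ones changed sign. All moves in Ishikawa came from the choice of cells: every called cell, cells under 1% GFP, or cells without TOP2A and MKI67 UMIs. Sign was scored for called changes only, and some others changed sign in Ishikawa. LSS at 2 h went from 0.19 to -0.13 with every called cell. FDPS at 8 h went from -0.11 to 0.065 in cells without TOP2A and MKI67 UMIs. The 412 include the T-47D changes with every called cell, which equal the main ones by construction. All 64 shares of cells were higher without thinning. TMM and median-of-ratios factors moved the median of all genes by at most 0.04 in either line. No paired analysis was possible because each line and time point was 1 culture. Depth limits LSS in Ishikawa most, with 146 UMIs at 0 h.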
